A study of Mus musculus and Ochotona curzoniae and Rattus norvegicus with 18 samples.

Results

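The RAS-ERK pathway carries growth factor signals from receptors at the cell surface through RAS, RAF and MEK to the kinase ERK, and it limits itself by inducing its own inhibitors. Expression of 9 such ERK feedback genes was compared between fibroblasts of the Tibetan pika (Ochotona curzoniae) and of the C57BL/6J mouse. They comprise 4 dual-specificity phosphatases (DUSP1, DUSP4, DUSP5 and DUSP6), 3 Sprouty genes (SPRY1, SPRY2 and SPRY4) and 2 Sprouty-related genes (SPRED1 and SPRED2). Members were taken by symbol from the pika rows and from the mouse Ensembl identifier of the same symbol. All 9 were present in both tables, out of 14418 symbols that the tables share, and all 9 passed the filter on low values.

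DUSP proteins remove phosphate from MAP kinases in the nucleus or cytoplasm, while Sprouty and SPRED proteins act further up, at the level of receptors, RAS and RAF. SPRED proteins bring the RAS-inactivating protein neurofibromin to the membrane. In serum-fed fibroblasts several of these genes are transcribed soon after ERK is activated, and their messages are short-lived, so their levels are known to follow recent signalling.

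Each species had 3 RNA-seq libraries of fibroblasts whose labelled tissue is epidermis, grown in DMEM with serum and lysed near confluence. The labels name a strain for mouse, C57BL/6J, and none for pika, and give no treatment for either. The labels do not say whether libraries of 1 species represent different animals or cultures, nor how long after the last change of medium the cells were lysed. Rat and rabbit libraries and the ChIP-seq samples of the series were not analysed here.

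The totals behind the deposited values were 7703576 to 8481030 reads in pika libraries and 3663102 to 5758950 in mouse libraries. Genes shared by both tables held 87.1% of the FPKM in each pika library and 37.0% to 38.3% in mouse libraries. Values below are therefore rescaled FPKM, that is, fragments per length with the shared genes of each library summing to 1000000. Differences are log2 fold changes of pika over mouse on the log2(rescaled FPKM + 1) scale, on which low genes appear to change less than they do. A gene was called when its limma-trend adjusted p was below 0.05 and its log2 fold change reached 1 in either direction. The keratinocyte markers KRT5, KRT14, KRT15, KRT10, CDH1 and EPCAM were at 0 in all pika libraries. The summed level of the 7 keratinocyte markers in both tables was 0.121 to 0.201 in pika libraries and 47.8 to 53.9 in mouse libraries, where DSP gave most of it. Endothelial markers, 6 in both tables, summed to 0.707 to 1.604 in pika libraries and 32.3 to 39.3 in mouse libraries, mostly TEK in mouse, and CDH5 and KDR were at 0 in all pika libraries. Leukocyte markers, also 6, summed to 14.1 to 15.2 in pika libraries and 33.9 to 43.2 in mouse libraries. PTPRC, ITGAM and CD3E were at 0 in all pika libraries, but CD3E was at 0 in all mouse libraries too. PTPRC averaged only 0.127 in mouse. CD14 averaged 10.8 in pika and 8.02 in mouse, while CSF1R (0.668 and 12.2) and CD68 (3.35 and 15.8) were higher in mouse. Melanocyte markers, 5 in both tables, summed to 68.1 to 78.5 in pika libraries and 54.8 to 58.3 in mouse libraries. PMEL averaged 31.6 in pika and 4.97 in mouse, whereas MITF averaged 40.2 in pika and 50.5 in mouse. TYR, TYRP1 and DCT were too low to test. The part of these markers in the results below was not tested. Fibroblast markers summed to 10721 to 11094 in pika libraries and 12660 to 13050 in mouse libraries over 8 genes, with COL1A1 and VIM giving most of both sums. Single fibroblast markers differed, with COL3A1 (-5.32), PDGFRA (-3.89) and COL6A1 (-1.40) called lower in pika and DCN (1.22) called higher. In such bulk samples, fewer cells of a type and less RNA per cell cannot be told apart, and species, genome and gene annotation cannot be told apart either.

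Among the phosphatases, DUSP1 and DUSP5 were far lower in pika, DUSP6 was moderately lower, and DUSP4 was higher. DUSP1, an immediate early nuclear phosphatase that acts on p38, JNK and ERK, had 99.5, 110.6 and 103.3 rescaled FPKM in pika libraries, against 709.5, 710.2 and 743.7 in mouse libraries. Every pika library lay well below every mouse library. The means were 104.5 ± 5.63 in pika and 721.2 ± 19.5 in mouse (SD, n = 3 each), a log2 fold change of -2.78 (SE 0.05, limma-trend adjusted p = 5e-11). DUSP5, a nuclear phosphatase specific for ERK, had 4.05, 3.80 and 5.62 in pika libraries, against 121.4, 117.7 and 111.5 in mouse libraries. It showed the largest difference of the 9 genes, with no overlap and a log2 fold change of -4.44 (SE 0.13, limma-trend adjusted p = 1.3e-09). The low pika level rested on 18, 16 and 26 reads, compared with 322, 201 and 249 in mouse.

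DUSP4, a nuclear phosphatase of ERK and JNK, went the other way. It had 68.5, 70.4 and 69.5 rescaled FPKM in pika libraries, against 31.3, 33.3 and 27.9 in mouse libraries. The pika libraries were all higher, and the log2 fold change of 1.15 (SE 0.08, limma-trend adjusted p = 4.3e-07) lay just past the fold minimum. With median-of-ratios scaling it was 0.98, under that minimum. DUSP6, the cytoplasmic phosphatase specific for ERK, had 30.6, 33.2 and 28.4 in pika libraries, against 72.3, 84.4 and 67.3 in mouse libraries. The groups did not overlap, and the log2 fold change was -1.25 (SE 0.10, limma-trend adjusted p = 1.2e-06). That call depended on the scale. On the FPKM as deposited DUSP6 had 14.1, 15.4 and 13.1 in pika libraries and 13.5, 15.9 and 12.8 in mouse libraries, with a log2 fold change of 0.017, and on reads not divided by gene length it was -0.24. In the mouse genome, build GRCm38.p6, Dusp1 lies on chromosome 17 from 26505591 to 26508472, Dusp4 on chromosome 8 from 34807610 to 34819894, Dusp5 on chromosome 19 from 53529145 to 53541809 and Dusp6 on chromosome 10 from 99263231 to 99267489.

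The promoters of the phosphatase genes with the largest differences are shown because of the short sequence words they hold. These are the 250 bases before the start site in the mouse reference (RefSeq, GRCm38.p6), written 5′ to 3′ on the gene's own strand, at chr17:26508473-26508722 (minus strand) for Dusp1 and chr19:53528895-53529144 (plus strand) for Dusp5. Capitals mark any match on either strand to TGACG (the core of the cyclic AMP response element), ACGTG or CACGTG (the E-box that clock factors read, which contains ACGTG), or to the serum response (CArG) element.
Dusp1: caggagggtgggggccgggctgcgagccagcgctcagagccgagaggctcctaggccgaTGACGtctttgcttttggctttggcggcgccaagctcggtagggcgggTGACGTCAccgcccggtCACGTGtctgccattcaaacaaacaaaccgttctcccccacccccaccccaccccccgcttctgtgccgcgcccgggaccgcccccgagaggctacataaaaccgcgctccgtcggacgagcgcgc
Dusp5: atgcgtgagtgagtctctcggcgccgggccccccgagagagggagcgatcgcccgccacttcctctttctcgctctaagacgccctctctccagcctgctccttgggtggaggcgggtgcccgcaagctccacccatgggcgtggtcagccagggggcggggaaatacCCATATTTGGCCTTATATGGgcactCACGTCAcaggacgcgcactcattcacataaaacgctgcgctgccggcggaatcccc
The Dusp1 window held TGACG at 3 positions, 2 of them overlapping on opposite strands, and 1 CACGTG whose ACGTG lies on both strands. In Dusp5, 2 CArG elements stood next to each other, followed by overlapping matches to ACGTG and TGACG. Over all 32851 mouse promoter windows of the same length, 17.8% held TGACG, 16.6% ACGTG, 6.02% CACGTG and 1.47% a CArG element. Windows were given for 7 members, Dusp1, Dusp5, Dusp6, Spry1, Spry2, Spred1 and Spred2. Among these, TGACG occurred in 3 (Spred2 besides Dusp1 and Dusp5), ACGTG in 3 (Spred1 besides Dusp1 and Dusp5), and CACGTG and CArG in 1 each. CCGGAA, a core word of ETS factors, and TGANTCA, the AP-1 word, were in none of the 7, compared with 12.0% and 6.75% of all windows. A match is a description of letters, and the pika promoters were not examined.

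**Figure D1:**
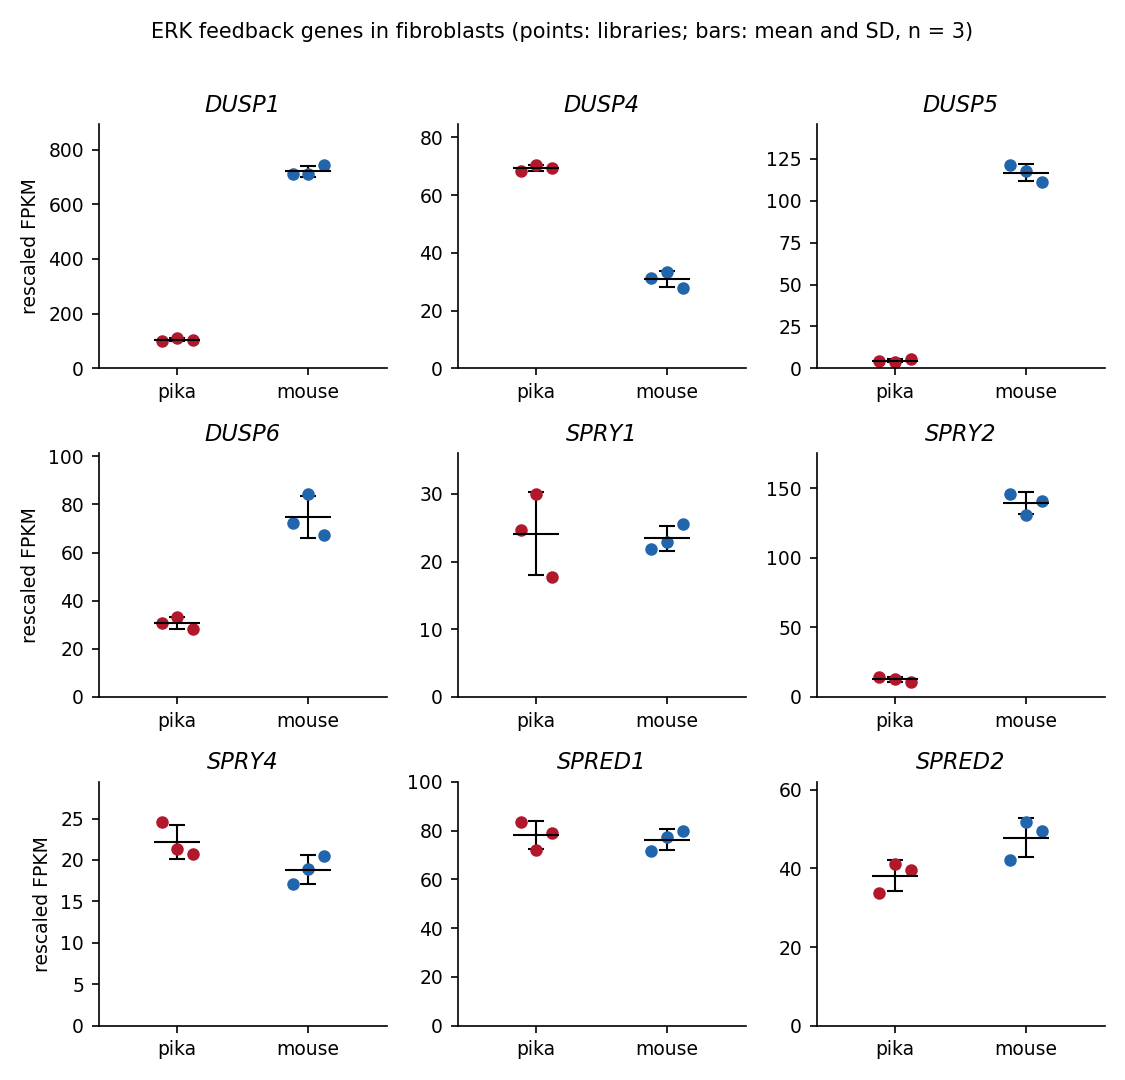
Rescaled FPKM (y axis, from 0, a separate scale in each panel) of the 9 genes in the pika and mouse libraries, with points for libraries and bars for the mean and SD of 3. DUSP1, DUSP5, DUSP6 and SPRY2 are lower in every pika library, DUSP4 is higher in every pika library, and SPRY1 and SPRED1 overlap.

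Of the Sprouty genes, SPRY2 alone was called. It had 14.7, 12.6 and 10.5 rescaled FPKM in pika libraries, against 146.2, 130.5 and 141.2 in mouse libraries. The pika level was well below mouse in each library, and the log2 fold change was -3.38 (SE 0.11, limma-trend adjusted p = 3.1e-09). SPRY2 restrains signalling from FGF receptors, and is known also to hold back degradation of the EGF receptor. Mouse Spry2 occupies 105891947 to 105896819 on chromosome 14. SPRY4, an inhibitor of RAS and RAF activation, had 24.5, 21.3 and 20.7 in pika libraries, against 17.1, 18.9 and 20.5 in mouse libraries. The groups came within a fraction of a unit of each other without overlapping, with a log2 fold change of 0.22 (SE 0.11, limma-trend adjusted p = 0.082). SPRY1, a target and inhibitor of receptor tyrosine kinase signalling, had 24.6, 30.0 and 17.8 in pika libraries, against 21.8, 22.9 and 25.5 in mouse libraries. Its pika libraries spread on both sides of the mouse ones, and the log2 fold change was 0.02 (SE 0.17, limma-trend adjusted p = 0.93). SPRY1 and SPRY4 rested on 259 and 289 reads in pika and 181 and 229 in mouse, summed over 3 libraries.

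Neither SPRED gene was called. SPRED1, mutated in Legius syndrome, had 83.4, 72.2 and 79.1 rescaled FPKM in pika libraries, against 71.7, 77.3 and 80.0 in mouse libraries. The ranges overlapped, with a log2 fold change of 0.03 (SE 0.07, limma-trend adjusted p = 0.65). On reads not divided by gene length it was 0.86, still inside the fold minimum. SPRED2, its close relative, had 33.8, 41.2 and 39.7 in pika libraries, against 42.2, 51.7 and 49.6 in mouse libraries. It was lower in all pika libraries by a small margin, a log2 fold change of -0.32 (SE 0.10, limma-trend adjusted p = 0.016) inside the fold minimum.

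By limma-trend, 4 of the 9 genes were called lower in pika, 1 was called higher and 4 had no call. Over all 10348 tested genes 23.5% were called lower and 28.7% higher, 52.2% together. An adjusted p under 0.05 without the fold minimum was reached by 6 of the 9 and by 88.6% of all tested genes. The libraries of the 2 species did not overlap for 7 of the 9, where 89.0% of all tested genes showed no overlap, so the number of differing members is not a result about them. The median log2 fold change was -0.32 over the 9 and 0.21 over all tested genes. The direction of the weaker members moved with the scale. Without rescaling, where the median over all genes was 1.29, SPRY1 (1.14), SPRY4 (1.31) and SPRED1 (1.27) joined DUSP4 (2.29) as called higher, and SPRED2 stood at 0.90. DUSP1 (-1.47), DUSP5 (-2.91) and SPRY2 (-2.01) were still called lower there, although 58.3% of all genes were called higher and 10.7% lower. Without division by gene length these 3 genes had log2 fold changes of -2.29, -4.31 and -2.51, and DUSP4 had 1.24. On that scale 25.9% of 9946 tested genes were called higher and 26.2% lower.

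Gene length entered the values unequally. The mouse model was longer than the pika model by a factor between 1.01 for DUSP6, with 2778 bases in pika and 2796 in mouse, and 3.96 for SPRY4, with 1158 in pika and 4587 in mouse. The models of SPRY2 (1847 and 2085 bases in pika and mouse) and SPRED1 (2926 and 3392) were also of near length. Over all tested genes with a length the median factor was 2.25. These lengths are the smallest that fit the steps of the FPKM values. The length and the reads of a gene may therefore both be understated by a whole factor.

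**Figure D2:**
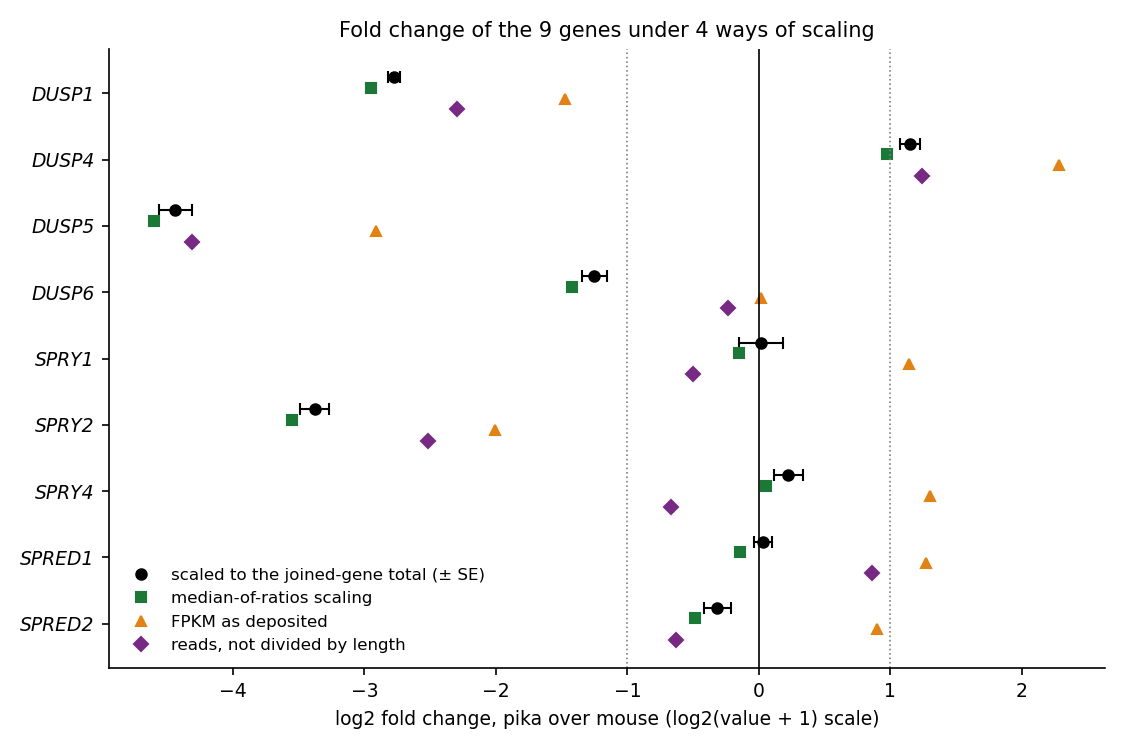
Log2 fold change of pika over mouse (x axis) of the 9 genes under 4 ways of scaling, with the SE of the joined-gene scaling as a bar and dotted lines at the fold minimum of 1 in each direction. DUSP1, DUSP5 and SPRY2 lie below -1 under all 4, while DUSP6, SPRY1, SPRY4, SPRED1 and SPRED2 cross or approach 0 under at least 1 of them.

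The share of each gene within its family, taken inside a library, depends on no scaling between libraries. It does depend on the lengths of the gene models. DUSP1 made up 49.9% ± 0.802 of the summed FPKM of the 4 phosphatases in pika and 76.4% ± 1.63 in mouse (SD, n = 3 each). DUSP4 was second in pika with 33.2% ± 0.821 and last in mouse with 3.27% ± 0.302. DUSP5 supplied 2.15% ± 0.506 in pika and 12.4% ± 0.631 in mouse, and DUSP6 14.7% ± 0.843 in pika and 7.92% ± 0.934 in mouse. On reads not divided by length, DUSP1 held 50.1% in pika and 77.0% in mouse, and DUSP4 26.0% in pika and 3.34% in mouse. DUSP5 then held 1.40% in pika and 11.4% in mouse, and DUSP6 22.4% in pika and 8.26% in mouse. The 4 phosphatases together summed to 209.2 ± 7.97 rescaled FPKM in pika and 943.5 ± 8.13 in mouse.

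SPRY2 was the Sprouty gene with the smallest share in pika and the largest in mouse. It held 21.4% ± 1.64 of the Sprouty FPKM in pika and 76.7% ± 1.98 in mouse, SPRY1 40.6% ± 5.63 in pika and 12.9% ± 0.982 in mouse, and SPRY4 38.0% ± 4.49 in pika and 10.4% ± 1.01 in mouse. On reads not divided by length, the SPRY2 share was 32.2% in pika and 65.3% in mouse, and in pika it lay between SPRY4 (35.9%) and SPRY1 (31.9%). SPRED1 held 67.2% ± 3.79 of the SPRED FPKM in pika and 61.5% ± 1.54 in mouse, and on reads 76.9% in pika and 54.0% in mouse.

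Ratios within a library were compared between species for 7 pairs, a selection of those possible within the families. Two-sided exact permutation tests of 3 against 3 libraries cannot go below p = 0.1, so no pair could reach 0.05. The ratios are therefore given as descriptions. On the rescaled values DUSP4 and SPRY4 were higher in every pika library, and DUSP1, DUSP6 and SPRY2 were lower. Separation of DUSP4 to DUSP1, DUSP4 to DUSP6 and SPRY2 to SPRY4 thus follows from those levels and is not a further result. The ratio of DUSP4 to DUSP1 was 0.688, 0.636 and 0.673 in pika libraries, against 0.0441, 0.0469 and 0.0375 in mouse libraries (exact permutation p = 0.1, adjusted 0.117). That of SPRY2 to SPRY4 was 0.598, 0.591 and 0.507 in pika libraries, against 8.56, 6.89 and 6.88 in mouse libraries (exact permutation p = 0.1, adjusted 0.117). Both ratios differed by many times their spread between libraries. DUSP5 to DUSP6 was 0.133, 0.114 and 0.198 in pika libraries, against 1.68, 1.39 and 1.66 in mouse libraries (exact permutation p = 0.1, adjusted 0.117). DUSP4 to DUSP6, SPRY2 to SPRY1 and SPRED1 to SPRED2 also separated the species, the last by little per length, at 2.47, 1.75 and 1.99 in pika libraries and 1.70, 1.49 and 1.61 in mouse libraries. On reads not divided by length the SPRED1 to SPRED2 ratio was 4.03, 2.86 and 3.25 in pika libraries and 1.249, 1.097 and 1.184 in mouse libraries, a wider gap. That of SPRY2 to SPRY4 was then 0.953, 0.943 and 0.809 in pika libraries and 3.89, 3.13 and 3.13 in mouse libraries, a narrower one. Since the recovered reads of a gene may be understated by a whole factor, the size of these gaps on reads is uncertain. SPRY1 to SPRY4 did not separate them, at 1.00, 1.41 and 0.860 in pika libraries and 1.28, 1.21 and 1.24 in mouse libraries (exact permutation p = 0.4, adjusted 0.4).

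**Figure D3:**
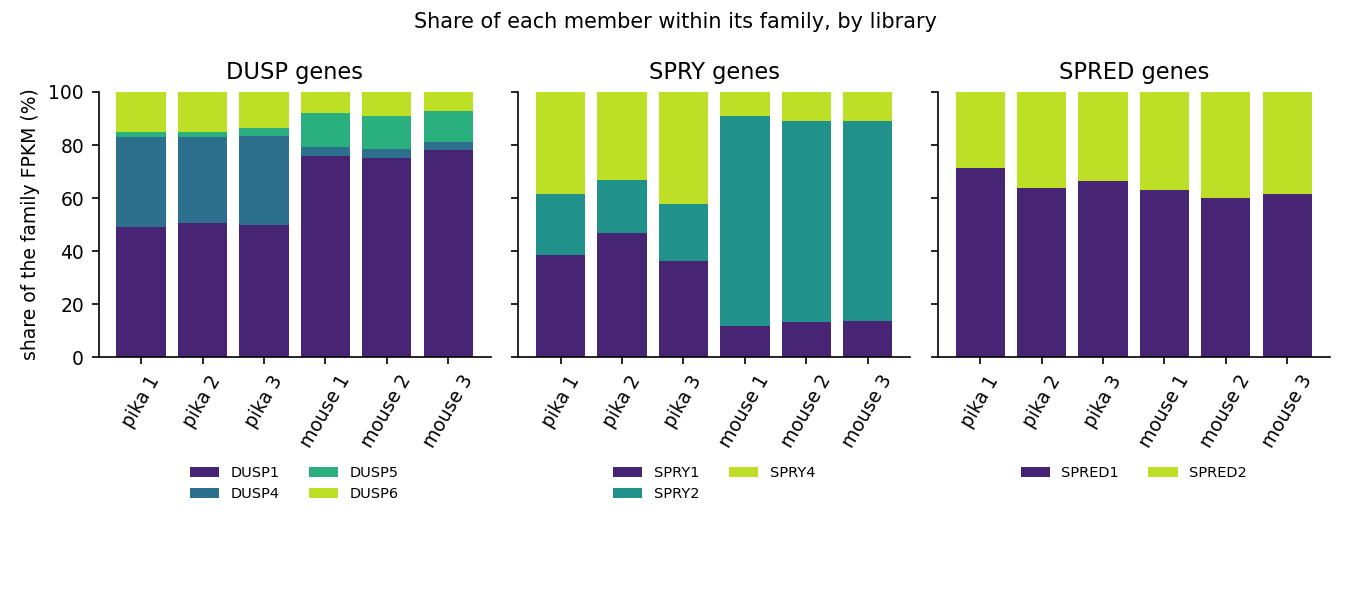
Share of the summed FPKM (y axis, percent) that each member holds within the DUSP, SPRY and SPRED genes, with 1 stacked bar per library, the 3 pika libraries on the left and the 3 mouse libraries on the right of each panel. On average DUSP4 fills 33.2% of the DUSP bars in pika and 3.27% in mouse, and SPRY2 fills 21.4% of the SPRY bars in pika and 76.7% in mouse.

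Levels per length ranked differently in the 2 species. In pika the order was DUSP1, SPRED1, DUSP4, SPRED2, DUSP6, SPRY1, SPRY4, SPRY2 and DUSP5, and DUSP6 with SPRY1 and SPRY1 with SPRY4 were neighbours whose libraries overlapped. In mouse it was DUSP1, SPRY2, DUSP5, SPRED1, DUSP6, SPRED2, DUSP4, SPRY1 and SPRY4, with overlap only between SPRED1 and DUSP6. DUSP1 headed both orders, yet its mean rescaled FPKM exceeded that of 78.9% of tested genes in pika and 98.1% in mouse. DUSP5 stood above 13.1% of tested genes in pika and 83.7% in mouse. The tested genes most like DUSP4, by Euclidean distance of centred log2 values over 6 libraries, were AIMP2 (distance 0.05), MRPL18 (0.06) and IFT52 (0.10). Those most like DUSP5 were RASSF2 (0.12), ARSI (0.23) and TRNP1 (0.28). Over libraries of 2 species this distance mostly reflects a similar log2 fold change, 1.16 for AIMP2 and -4.43 for RASSF2. Shared regulation was not tested.

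The other genes of the pathway were examined by role. Beside the counts of calls given for each list, 28.7% of all tested genes were called higher and 23.5% lower. These shares were 58.3% and 10.7% without rescaling, and 25.9% and 26.2% without division by length. Growth factor ligands and receptors, which start the signal, differed in both directions, with 6 higher calls in pika, 9 lower calls and 5 genes without a call among 20 tested. FGF7, a fibroblast-made mitogen for epithelium, averaged 4.80 rescaled FPKM in pika libraries, against 364.9 in mouse libraries, and its log2 fold change was -6.00. FGF2 was lower too (-3.91), as was the receptor gene PDGFRA (-3.89). EREG, encoding an EGF receptor ligand, was listed at 0 in all 3 pika libraries, against 145.4, 154.0 and 146.1 in mouse libraries. Whether that 0 reflects the gene or its pika annotation was not tested. EREG and HGF, both among the lower calls, passed the filter on low values through mouse alone. A call on them could therefore only be lower in pika. The 6 called higher were FGFR3 (3.35), MET (2.70), IGF1R (2.14), FGF10 (1.75), EGFR (1.34) and FGF1 (1.05). The median log2 fold change of the list was -0.33. Without rescaling 9 were called higher and 7 lower, and without division by length 3 of 19 higher and 8 lower.

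The kinases, adaptors and RAS genes that carry the signal had counts of calls that depended on the scale, as did the shares over all genes. Among 23 tested there were 6 higher calls and 1 lower call, and 16 genes had none, with a median of 0.22 beside 0.21 for all tested genes. Without rescaling 16 were called higher, and without division by length 2 were called higher and 4 lower. RPS6KA1, an ERK-activated kinase, had 36.1 ± 2.75 in pika and 7.89 ± 0.395 in mouse (SD, n = 3 each), a log2 fold change of 2.06. HRAS (1.43) and the RAS activators SOS1 (1.39) and SOS2 (1.29) were also called higher. Without division by gene length HRAS (-0.21) and SOS1 (-0.67) lay on the other side of 0. In the stress MAP kinase cascade, the substrates' pathway of DUSP1, 1 of 8 was called, MAP2K6 (-1.29), and it was not called without rescaling (-0.08). Without rescaling 5 of the 8 were called higher, and without division by length 4 were called lower. On the rescaled values MAPKAPK2 (0.32) and MAP2K3 (-0.80) were not called.

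Other brakes on receptors and RAS differed in both directions, with 4 higher and 3 lower calls among 12 tested and a median of -0.12. Without rescaling the calls were 7 higher and 1 lower, and without division by length 2 higher and 3 lower. ERRFI1, an inducible inhibitor of the EGF receptor, had 29.2, 30.6 and 25.6 rescaled FPKM in pika libraries, against 468.4, 474.9 and 499.1 in mouse libraries. With a log2 fold change of -4.04 it lay between DUSP5 and SPRY2. RASA1 (1.72) and RASA2 (1.50), which switch RAS off, were called higher, and DAB2IP (-1.37) lower. RASA2 fell under the fold minimum without division by length (0.22), and DAB2IP without rescaling (-0.11). Relatives of the members, other DUSP genes and SPRED3, were called lower in 3 of 7 tested, with a median of -0.31. SPRED3 averaged 1.19 on 18 reads in pika, against 28.3 on 462 reads in mouse, a log2 fold change of -3.74. It passed the filter on low values through mouse alone, so a call on it could only be lower in pika. DUSP10 and DUSP14, also dual-specificity phosphatases, were each at -1.03, and both lay above 0 without rescaling (0.19 and 0.18). Neither was called without division by length (-0.24 and -0.66), nor with the third pika library left out (-0.99 and -0.97), so that SPRED3 alone of the 3 calls held there. Without rescaling 3 of the 7 relatives were called higher and 1 lower, and without division by length 1 higher and 2 lower.

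Genes known to be induced by ERK were mostly lower in pika, with 14 lower and 3 higher calls among 19 tested. That list, like the others, was chosen with earlier results of these data known, so its counts and median are descriptive. Their median log2 fold change was -2.74, and without rescaling 12 were called lower and 4 higher, and without division by length 12 of 18 lower and 2 higher. The immediate early transcription factor FOS had 11.7, 13.1 and 13.0 in pika libraries, against 865.1, 876.0 and 885.3 in mouse libraries. EGR2 (-8.12) and FOSB (-5.77) were lower as well, on 8 and 16 pika reads. EGR3 was listed at 0 in all 3 pika libraries, against 385.5 to 426.1 in mouse libraries. EGR2 and EGR3 passed the filter on low values through mouse alone, so a call on them could only be lower in pika. Whether the 0 of EGR3 reflects the gene or its pika annotation was not tested. The 3 genes called higher, chosen for mention after their values were seen, were the ETS factors ETV1 (2.15), ETV4 (1.15) and ETV5 (1.06), which FGF and ERK signalling is known to induce. On the rescaled values DUSP1, DUSP5, DUSP6 and SPRY2 were lower in pika like FOS and EGR2, while DUSP4 was higher like the ETV genes. SPRY1, SPRY4, SPRED1 and SPRED2 had no call there in either direction. Without division by length DUSP6 (-0.24) and ETV4 (0.49) fell under the fold minimum, as did DUSP6 without rescaling (0.017). ETV4 and ETV5 lay about as near that minimum as DUSP4, which median-of-ratios scaling put under it (0.98). The ETV genes were not followed singly under that scaling. Whether members and these genes share a cause was not tested.

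**Figure D4:**
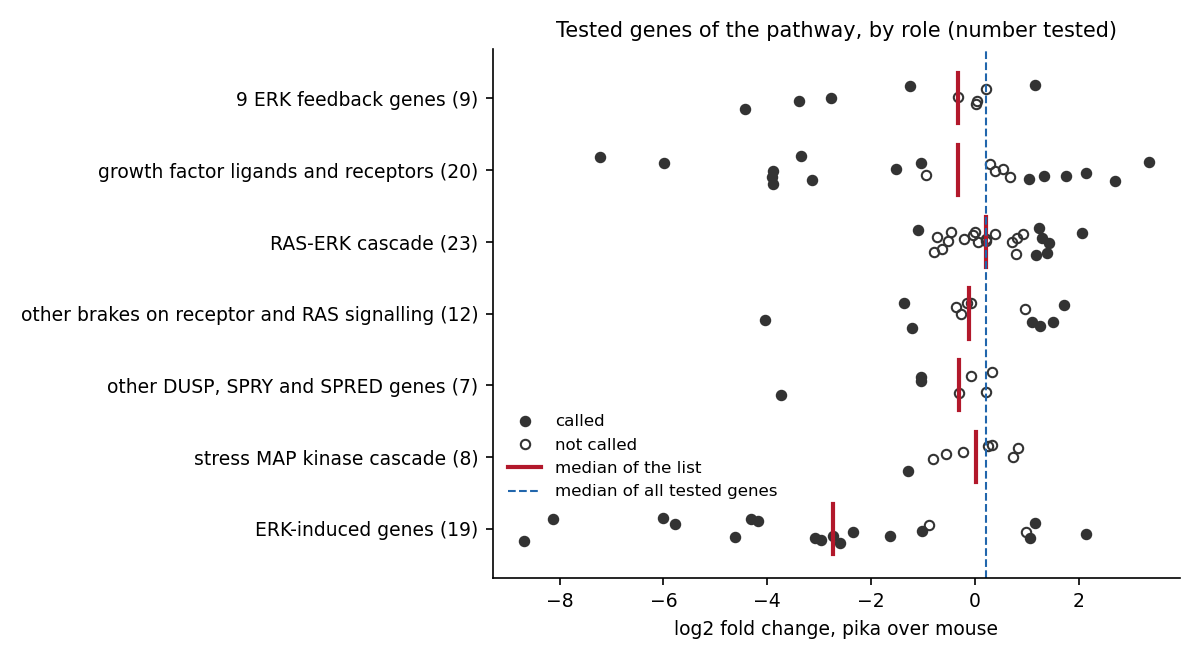
Log2 fold change of pika over mouse (x axis) for the tested genes of each role, with filled points for called and open points for uncalled genes, a red bar at the median of each list and a dashed line at the median of all tested genes (0.21). The ERK-induced genes have the lowest median (-2.74), and the cascade genes lie around the median of all genes. The lists were chosen with earlier results of these data known.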

How the data were processed

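The deposited files hold 1 FPKM value per gene and library, fragments relative to gene model length and library total, made by the authors. STAR 2.6.1a, featureCounts, edgeR 3.28.1, CASAVA 1.9 and the mouse build GRCm38 are listed without roles in the submitters' processing notes. Which annotation was used for each species is not stated in the labels.

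Mouse identifiers were named from a table of mouse genes, and symbols found once in each species were joined. Each library was rescaled to a joined total of 1000000. Genes with a mean of 1 FPKM or more in at least 1 species were tested on log2(value + 1) with limma-trend, two-sided (R 4.3.3 and limma 3.58.1), with Benjamini-Hochberg adjustment over all 10348. p-values measure the spread between libraries, which may be technical. Whole reads, model lengths and totals were worked out from the steps of the FPKM values within 0.002 reads. The recovered reads made up 95.7% to 96.3% of the totals, so the reads and the length of some genes may both be divided by a common whole number. Intervals from counting were not used. The mean chi-square per gene between libraries of a species was 1.35 to 2.93, above the value of about 1 that resequencing of a single library gives, and separate preparations of 1 RNA or culture were not told apart. The fit and the read recovery were tested on simulated data. Named genes were the 9 members and, per pathway list, up to 4 called genes with the largest absolute fold change, or up to 2 further genes by level where fewer than 2 were called. Members and lists were chosen with earlier results of these data known. Alternatives were another pseudocount, other filters, other scalings, no division by length, no trend, a replicate block and leaving out each library. Python 3.11.15, numpy 2.4.6, pandas 2.3.3, scipy 1.17.1 and matplotlib 3.10.9 were used.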

Additional observations from a re-analysis of the deposited data

How the results depend on the processing

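DUSP1, DUSP5 and SPRY2 were called lower under the main settings and all 15 alternatives, and DUSP4 was called higher under all but median-of-ratios scaling (0.98). The called members numbered 1 higher and 4 lower. The higher count became 4 without rescaling and 0 with median-of-ratios scaling. DUSP6 was -0.24 without division by gene length and 0.017 without rescaling. Of the uncalled members, SPRY1 was -0.15 with median-of-ratios scaling, -0.10 with TMM scaling, -0.50 without division by length and between -0.15 and 0.21 when 1 library was left out. SPRED1 was -0.14 with median-of-ratios scaling, -0.084 with TMM scaling, 0.86 without division by length and between -0.012 and 0.09 when 1 library was left out. SPRY4 was -0.67 without division by length and SPRED2 was 0.90 without rescaling. Pathway genes called numbered 19 higher and 31 lower, but 44 and 21 without rescaling and 10 and 33 without division by length. Over all 10348 tested genes 2970 were called higher and 2433 lower, against 6029 and 1106 without rescaling. With the filter at 5 FPKM, 2585 of 8513 tested genes were called higher and 1584 lower. Among the named pathway genes, DUSP14 (0.18), DUSP10 (0.19) and MAP2K3 (0.48) turned above 0 without rescaling, and HRAS (-0.21) and SOS1 (-0.67) below 0 without division by length. The cause of these moves was not tested. Replicate numbers only name the libraries of each species, and deviations of same-numbered libraries correlated between -0.01 and 0.05. With the replicate block 1 member was called higher and 4 lower, and 2972 and 2433 genes were called over all, so it changed no call of a member. Depth limits the pika level of DUSP5 most among the members, at 16 to 26 reads per library, and SPRED3 (5 to 7), FOSB (3 to 8) and EGR2 (1 to 5) had fewer.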
